A study of Mus musculus with 56 samples.

Results

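Rnase9, Rnase10, Rnase11, Rnase12 and Rnase13, a group of ribonuclease A family genes of the mouse, were followed along the male reproductive tract at 2 ages. They were chosen by name and are 5 of the 53379 genes counted. All 5 symbols were found in the annotation, and all 5 genes had counts. RNA-seq libraries came from 7 regions of C57BL/6 mice, a common inbred laboratory strain, in the order in which sperm pass them. These were the testis, the efferent ductules that drain it, the epididymis cut into its initial segment, caput, corpus and cauda, and the vas deferens. Each region was represented by 4 libraries from 3-month-old and 4 from 21-month-old mice, and the 7 regions were dissected from the same animals. RNA was from whole pieces of tissue, so fewer cells of a type and less RNA per cell cannot be told apart in any difference below. By the study's methods 4 mice of each age were sequenced, so the 4 libraries of a group are from separate mice.

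Libraries held 11125279 to 20561967 counts, with a median of 16384049. The marker list of each region was highest in that region at 3 months, although the caput list was nearly as high in the initial segment (28661 CPM, against 28909 in the caput). CPM, the unit of level used throughout, is a count divided by the scaled library total in megacounts. Gm42418, a transcript annotated over a ribosomal RNA repeat, took between 1.27 and 49.7% of the counts of a library, the highest share being in replicate 2 of the caput at 3 months. In the efferent ductules at 21 months, replicates 2 and 3 stood apart. Their summed level of 6 initial segment markers was 4.30 and 1.85% of the mean of the initial segment itself, against 0.0137 and 0.0142% in replicates 1 and 4. The 5 efferent ductule markers summed to 3580 to 4058 CPM in all 4 of these libraries.

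Ribonuclease A family proteins are small secreted proteins held together by disulfide bonds. The canonical members cut RNA. The members followed here lack residues that the catalytic site needs, and they are known as products of the male tract. The epididymal epithelium, under the control of androgens and of fluid from the testis, secretes a different set of proteins into the lumen in each of its segments, and sperm mature as they pass through. Loss of Rnase10, which is made in the proximal epididymis, is known to impair the passage of mouse sperm into the oviduct.

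The genes lie on chromosome 14 (GRCm38, GENCODE M21). Rnase10 spans 51007751 to 51010758 on the plus strand. The other four are on the minus strand, Rnase9 at 51038459 to 51041869, Rnase11 at 51049451 to 51050163, Rnase12 at 51056698 to 51057661 and Rnase13 at 51921362 to 51922773. The span from Rnase10 to Rnase12 is 49.9 kb and holds no other protein-coding gene. Rnase13 starts 863.7 kb beyond Rnase12, with 27 protein-coding genes between them. No annotated gene overlaps any of the 5. Their merged exons measure 1665 bases (Rnase10), 1189 (Rnase9), 713 (Rnase11), 673 (Rnase12) and 1412 (Rnase13), and levels are compared between genes only per kb of exon. Coding sequences of the 5 shared 58.4 to 68.7% of aligned bases in their 10 pairs. The closest other family gene was Rnase1, at 71.6% with Rnase10.

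The 250 bases before the RefSeq transcript start (GRCm38.p6) are shown for the gene with its peak in the initial segment and for those with their peak in the caput, 5′ to 3′ along the gene. An ETS site, GGAAGT or, read on the other strand, ACTTCC, would be in capitals.
Rnase10, chr14:51007501-51007750, plus strand: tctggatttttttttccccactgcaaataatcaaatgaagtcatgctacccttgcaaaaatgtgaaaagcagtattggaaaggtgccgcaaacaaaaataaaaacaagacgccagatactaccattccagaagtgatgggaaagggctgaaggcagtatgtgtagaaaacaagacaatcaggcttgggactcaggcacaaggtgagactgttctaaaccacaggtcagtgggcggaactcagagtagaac
Rnase9, chr14:51041868-51042117, minus strand: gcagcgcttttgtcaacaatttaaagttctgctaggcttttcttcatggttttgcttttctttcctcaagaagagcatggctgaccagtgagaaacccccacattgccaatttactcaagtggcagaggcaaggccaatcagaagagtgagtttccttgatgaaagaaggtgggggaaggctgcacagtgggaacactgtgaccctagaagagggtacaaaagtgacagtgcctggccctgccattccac
Rnase13, chr14:51922774-51923023, minus strand: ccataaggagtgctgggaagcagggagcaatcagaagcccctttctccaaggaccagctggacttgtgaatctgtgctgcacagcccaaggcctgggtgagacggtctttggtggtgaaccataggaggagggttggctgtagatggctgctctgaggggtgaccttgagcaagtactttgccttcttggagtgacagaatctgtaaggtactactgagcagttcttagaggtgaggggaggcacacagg
In the window from 250 bases before to 50 after the start, the ETS site was found at 45 for Rnase10, counted from the start at 1 with no 0, outside the bases shown. It was not found for the other four genes, and the RefSeq start of Rnase12 lay 419 bases from that of GENCODE. Of 32851 promoters of the same length, 23.8% held it. These matches of letters are a description of the window.

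Levels are given as CPM, scaled with TMM factors over all 56 libraries, as the mean ± SD of 4 libraries. Along the tract the 5 genes peaked in 3 different regions, in the same region at both ages. Rnase10 peaked in the initial segment, Rnase9 and Rnase13 in the caput, and Rnase11 and Rnase12 in the corpus. Per kb of exon at 3 months, the peak level was 2744 ± 236 CPM for Rnase10, 1931 ± 636 for Rnase9, 749 ± 256 for Rnase13, 729 ± 39.3 for Rnase12 and 93.5 ± 13.4 for Rnase11. Together the genes took 0.422 to 0.498% of all counts in the initial segment at 3 months and 0.0949 to 0.108% in the corpus.

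**Figure D1:**
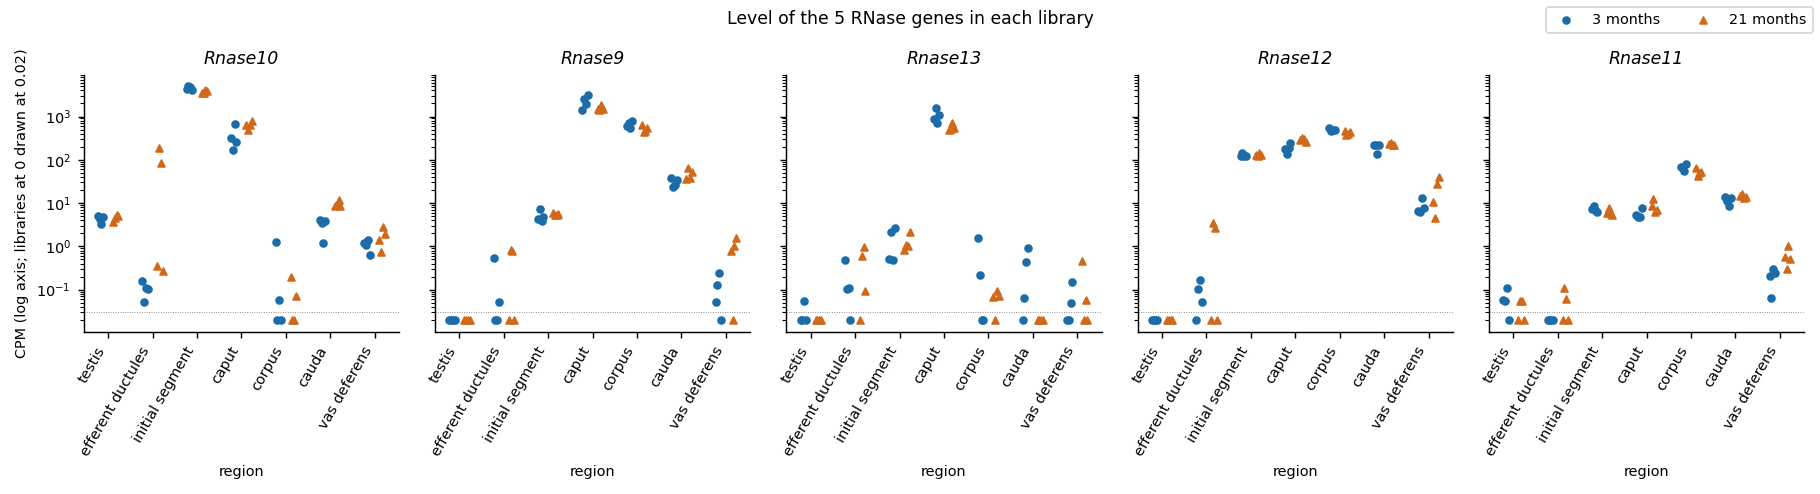
CPM of each gene (log axis) in each of the 56 libraries, by region on the x axis and by age, with libraries at 0 drawn at 0.02. Rnase10 is highest in the initial segment (3443 to 5014 CPM), Rnase13 exceeds 2.71 CPM in the caput libraries only, and efferent ductule replicates 2 and 3 at 21 months lie at 188 and 85.2 CPM of Rnase10.

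The make-up of the family therefore changed along the duct. In the initial segment at 3 months, Rnase10 gave 93.1 ± 0.446% of the summed CPM per kb and Rnase12 gave 6.35 ± 0.384%. In the caput, 59.8 ± 6.26% came from Rnase9, 23.8 ± 6.42% from Rnase13 and 7.24 ± 5.10% from Rnase10. In the corpus, Rnase12 (53.2 ± 4.36%) and Rnase9 (39.9 ± 3.97%) made up most of the sum. In the cauda Rnase12 alone gave 86.8 ± 1.99%, and in the vas deferens 92.1 ± 1.40%, there on a sum of 13.5 ± 4.70 CPM per kb. At 21 months the caput was the region of the epididymis whose mean shares differed most from those at 3 months, with 51.4 ± 1.71% from Rnase9, 17.1 ± 2.22% from Rnase12, 15.6 ± 1.25% from Rnase13 and 15.4 ± 2.79% from Rnase10.

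**Figure D2:**
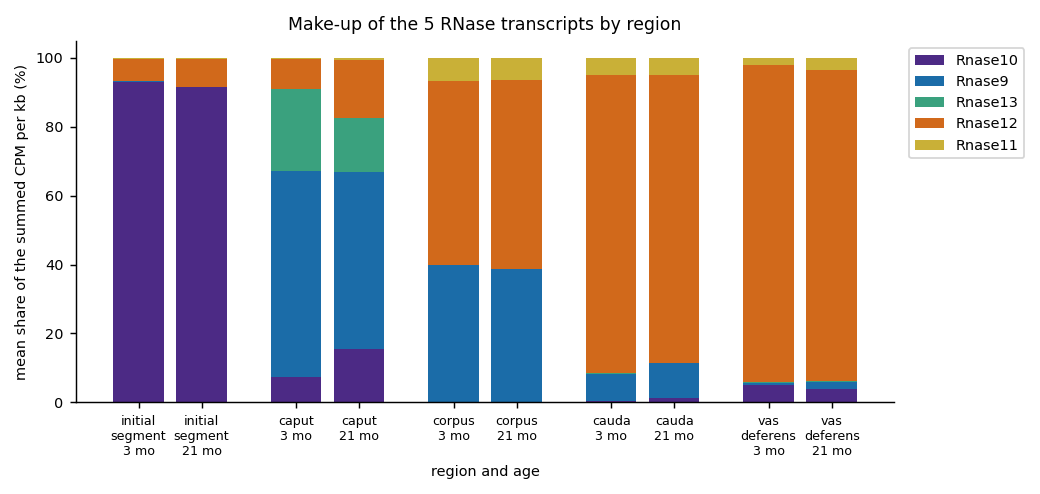
Mean share (%) of each gene in the summed CPM per kb of exon of the 5 genes, by region and age (x axis, 4 libraries per bar). Rnase10 fills 93.1% of the bar of the initial segment at 3 months, Rnase9 59.8% in the caput, and Rnase12 53.2% in the corpus and 86.8% in the cauda.

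Neighbouring regions were compared with the edgeR quasi-likelihood test over the 28 libraries of an age. Genes were called where the Benjamini-Hochberg adjusted p was under 0.05 and levels differed 4-fold or more. The 28 libraries were treated as independent although regions came from the same mice, since the labels do not link libraries to a mouse. Between testis and efferent ductules 4 of 5 genes were called at 3 months (48.9% of all genes) and 4 at 21 months (49.0%). At 3 months both regions were at or near 0 for Rnase9, Rnase11, Rnase12 and Rnase13, with 0 to 13 counts per gene over 4 libraries, and only Rnase10, which fell by 5.21 on the log2 scale into the efferent ductules, rested on more. The count was 2 without replicate 1 or 3 of all regions and 3 without replicate 2 or 4. At 21 months it was 1 without efferent ductule replicates 2 and 3, and the log2 difference of Rnase10 turned from 4.02 to -3.67. From the efferent ductules to the initial segment at 3 months, all 5 genes were called higher, while 15.6% of all genes tested were called. The call of Rnase13, at a log2 difference of 3.07, was lost without replicate 4 of all regions (2.12, edgeR adjusted p = 0.0633), which left 4 of 5. From the initial segment to the caput 3 of 5 were called (7.85% of all genes), from caput to corpus 3 (10.8%), from corpus to cauda 3 (5.69%) and from cauda to vas deferens 3 (11.8%). At 21 months the counts were 4 (17.5%), 3 (10.3%), 3 (10%), 2 (6.23%) and 4 (11.4%) of 5 in the same order. Without efferent ductule replicates 2 and 3, which share this fit, these 5 counts at 21 months were 5, 3, 3, 2 and 4. Since the genes were known for their regional pattern, these counts describe the pattern.

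Rnase10 was by far most abundant in the initial segment. At 3 months its 4 libraries there had 4306, 5014, 4775 and 4177 CPM, a mean of 4568 ± 393, and at 21 months they had 3466, 3443, 4202 and 3819 CPM, a mean of 3733 ± 357. The ranges of the ages overlapped. From the initial segment to the caput its level fell by 3.63 on the log2 scale (SE 0.33, edgeR adjusted p = 4.30e-10) at 3 months and by 2.64 (adjusted p = 0.00713) at 21 months. In the corpus, only 0 to 18 counts per library were seen at 3 months and 0 to 3 at 21 months.

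Low levels of Rnase10 were also found elsewhere. The testis had 4.34 ± 0.723 CPM at 3 months and 4.63 ± 0.732 at 21 months, from 61 to 98 counts per library. In the cauda, next to a corpus that had almost none, Rnase10 reached 3.12 ± 1.29 CPM at 3 months and was called against the corpus at both ages, at a log2 difference of 3.14 (SE 0.62, adjusted p = 2.30e-04) and of 6.77 (adjusted p = 0.00110). Without replicate 1 of all regions, which held 18 of the 19 corpus counts, the former was 6.46. The cauda and testis at 3 months overlapped in their ranges. In the cauda, the initial segment markers summed to 6.29 to 9.37 CPM at 3 months and 5.42 to 10.5 at 21 months, and the testis and sperm markers, which the sperm stored in the cauda also carry, to 276 to 498 and 203 to 564. The testis and sperm markers summed to 190 to 234 and 187 to 362 CPM in the corpus at 3 and 21 months. In the testis they summed to 7100 to 8628 and 7646 to 8776 CPM. The part of sperm RNA in the Rnase10 counts was not tested.

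In the caput, the level of Rnase10 varied most between libraries at 3 months, with 316, 171, 665 and 251.5 CPM. Replicate 3 alone lay within the range at 21 months, where the libraries had 652, 498, 639.7 and 783 CPM. The same replicate 3 had an initial segment marker sum of 3734 CPM, against 1639 to 1953 in the other 3 libraries and 2172 to 3499 at 21 months. As shares of the initial segment means of the same age, Rnase10 stood at 14.6% and the markers at 15.4% in that library. The part of initial segment tissue in these caput values was not tested.

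**Figure D3:**
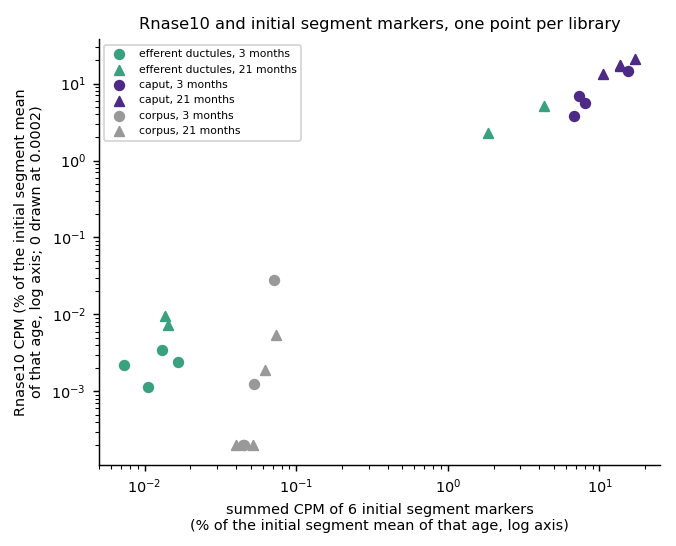
Rnase10 CPM (y axis) against the summed CPM of 6 initial segment markers (x axis), each as a percent of the initial segment mean of the same age on log axes, 1 point per library of the efferent ductules, caput and corpus. Efferent ductule replicates 2 and 3 at 21 months (5.03 and 2.28% for Rnase10) lie apart from the other efferent ductule libraries, and caput replicate 3 at 3 months (14.6%) lies among the caput libraries of 21 months.

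Transcription factors of the PEA3 group, which bind ETS sites and are known to act on the initial segment, differed in their means between the initial segment and the next region. At 3 months Etv5 had 786 ± 85.8 CPM in the former and 69.1 ± 32.9 in the caput, Etv4 had 226 ± 31.3 and 16.3 ± 6.13, and Etv1 had 87.9 ± 8.82 and 20.5 ± 6.99. At 21 months the means were 739 and 103 CPM for Etv5, 184 and 13.2 for Etv4, and 93.5 and 23.3 for Etv1, respectively. None of these 3 genes was called between the ages in either region by the edgeR test with 1.5-fold.

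Rnase9 was a gene of the caput and corpus. In the caput at 3 months its libraries had 1445, 2559, 1977 and 3204 CPM, a mean of 2296 ± 757, and at 21 months 1497, 1391, 1828 and 1465 CPM, a mean of 1545 ± 194. The 21-month values all lay within or below the range at 3 months. Between the initial segment, with 4.99 ± 1.501 CPM, and the caput, Rnase9 rose by 8.95 on the log2 scale (SE 0.35, edgeR adjusted p = 1.04e-16) at 3 months and by 8.01 (adjusted p = 1.80e-14) at 21 months. In the corpus it had 654 ± 101 CPM at 3 months, 3.76-fold below the caput in the fit, just under the 4-fold limit, at an adjusted p of 6.34e-07. It then fell by 4.50 (SE 0.28, adjusted p = 1.43e-12) into the cauda. Rnase9 had 0 counts in all 8 testis libraries, where a count of 0 allows up to 3 counts per library.

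Rnase13 was found almost wholly in the caput in these libraries. Its caput libraries had 897, 1552, 710.2 and 1071 CPM at 3 months, a mean of 1058 ± 361. Every one of the other 48 libraries had 2.71 CPM or less. The caput thus held 99.8% of the sum of the 7 regional means at 3 months and 99.7% at 21 months. Rnase13 rose by 9.62 on the log2 scale (SE 0.52, edgeR adjusted p = 6.12e-15) from the initial segment to the caput and fell by 11.35 (SE 0.59, adjusted p = 8.25e-16) from there to the corpus. Without replicate 1 of all regions the log2 difference from caput to corpus was -14.02, and it was called without each of the 4 replicate numbers in turn. The second highest region was the initial segment, with 1.45 ± 1.13 CPM, whose range overlapped with that of the corpus. In the corpus, 22 of the 25 counts at 3 months were from replicate 1, which also held 18 of the 19 counts of Rnase10.

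Rnase12 was the most widely spread of the 5. Its mean at 3 months was 126 ± 10.5 CPM for the initial segment, 184 ± 45.4 for the caput, 490.3 ± 26.5 for the corpus and 196 ± 41.5 for the cauda. The ranges of initial segment, caput and cauda overlapped, and only the corpus stood above its neighbours in all 4 libraries. The rise from caput to corpus was 2.52-fold (log2 1.34, SE 0.17, edgeR adjusted p = 2.76e-07), under the 4-fold limit. At 21 months the rise was 0.50 (SE 0.42, edgeR adjusted p = 0.413), and 0.50 with an adjusted p of 0.255 without efferent ductule replicates 2 and 3. The estimate of variation in this fit is shared by all 7 regions. The corpus libraries at 21 months (369 to 463 CPM) still lay above those of the caput (256 to 313 CPM) without overlap, the means differing 1.44-fold. The difference from cauda to vas deferens, with 8.41 ± 2.98 CPM in the latter, was called at both ages (log2 -4.38, SE 0.19, adjusted p = 4.78e-16 at 3 months). Testis libraries had 0 counts of Rnase12.

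Rnase11, beside Rnase12 on the chromosome, followed a similar course at a lower level. It had 66.6 ± 9.57 CPM in the corpus at 3 months, against 5.61 ± 1.29 in the caput, a log2 rise of 3.48 (SE 0.18, edgeR adjusted p = 1.35e-14). It fell by 2.61 (SE 0.17, adjusted p = 3.95e-12) into the cauda at 3 months and by 1.95 (adjusted p = 1.24e-08) at 21 months, the latter under 4-fold. Its caput libraries at 3 months overlapped with the 7.23 ± 1.08 CPM of the initial segment. The ratio of Rnase12 to Rnase11 per kb at 3 months was 18.6 ± 1.76 for the initial segment, 34.7 ± 4.196 for the caput, 7.92 ± 1.19 for the corpus and 18.0 ± 1.72 for the cauda. At 21 months it was 23.5 ± 5.09, 37.7 ± 9.75, 8.46 ± 0.687 and 16.8 ± 0.565.

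Over all 56 libraries, log2(CPM + 1) of Rnase11 and Rnase12 had the highest correlation of the 10 pairs (Pearson's r = 0.909), and that of Rnase10 and Rnase11 the lowest (0.103). Libraries of 1 region share their tissue, so these values describe the regional patterns. Among 15487 genes with a group mean of at least 10 CPM, those most like Rnase9 were Defb39 (r = 0.982), a beta-defensin gene, AY761185 (0.965) and Wfdc11 (0.952), a gene of the whey acidic protein family. Those most like Rnase10 were Gm4846 (0.981), the lipocalin gene Lcn8 (0.977), itself in the initial segment marker list, and Gm32017 (0.976). Rnase13 was followed by Gm15196 (0.982), Gc (0.977), which encodes the vitamin D binding protein, and the neurotensin receptor gene Ntsr2 (0.973). Smbd1 (0.968), the beta-defensin gene Defb37 (0.958), which is in the corpus marker list, and the chemokine scavenger gene Ackr4 (0.958) were most like Rnase11. Hpdl (0.980), the keratin gene Krt14 (0.977), a basal cell marker, and Rprd1a (0.974) were most like Rnase12. By Spearman's correlation 2 of the 3 genes were the same for Rnase9, 1 for Rnase10 and 0 for each of the other three.

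The ages were compared in each region with the edgeR quasi-likelihood test over its 8 libraries, and genes were called at an adjusted p under 0.05 and at least 1.5-fold. Scaling factors were computed within the region, so that fold changes can differ from the ratio of the CPM means. In the caput 2 of 5 genes were called, Rnase12 higher and Rnase13 lower at 21 months, where 5.71% of all genes were called, 1.88% of them higher and 3.83% lower as shares of all genes tested. Elsewhere a call was made only in the efferent ductules, for Rnase10 (4.71% of all genes).

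Rnase13 in the caput had 484, 509.8, 696 and 548 CPM at 21 months, a mean of 559 ± 94.8. All 4 lay below the lowest library at 3 months, 710.2 CPM. The log2 difference was -1.02 (SE 0.24, edgeR adjusted p = 0.0223), a change of 2.02-fold. The study, which names Rnase13 among its region-specific genes, reports invariant levels at the 2 ages for the genes it selected as markers. Without replicate 2 at 3 months, the library with the highest Rnase13 and the highest share of Gm42418, the difference was -0.67 (adjusted p = 0.0240). The call was lost without replicate 1, 2 or 4 at 21 months, where the difference was -0.95 (adjusted p = 0.0838), -0.99 (0.0694) and -1.004 (0.0674). Scaled by library size only the difference was -0.65 (edgeR adjusted p = 0.349), and in a fit of all 56 libraries -0.92 (adjusted p = 0.0942), neither of them called. The library size of replicate 2 at 3 months includes Gm42418, which took 49.7% of its counts. The fit of all 56 libraries takes its estimate of variation from all regions.

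Rnase12 in the caput had 176, 132, 183 and 243 CPM at 3 months and 283, 313, 299.9 and 256 CPM at 21 months. The groups did not overlap, although the highest library at 3 months was near the lowest at 21 months. The log2 difference was 0.60 (SE 0.13, edgeR adjusted p = 0.0188), a rise of 1.52-fold, just above the 1.5-fold limit. It went below that limit without replicate 1 (0.55, adjusted p = 0.0117) or replicate 2 (0.53, adjusted p = 0.0354) at 3 months. The adjusted p rose above 0.05 without replicate 1 (0.0612), 2 (0.0673) or 3 (0.0630) at 21 months. Neither library size scaling (0.78, edgeR adjusted p = 0.193) nor the fit of all 56 libraries (0.65, adjusted p = 0.310) gave a call. The limits of these settings given for Rnase13 hold here too. The corpus markers, a list of genes from the region where Rnase12 peaks, summed to 1592 to 2557 CPM in the caput at 3 months and 2435 to 3087 at 21 months, and how far tissue next to the caput contributed was not tested. In the same libraries as the Rnase12 and Rnase13 differences, 3 other marker sums were lower at 21 months without overlap. Smooth muscle markers summed to 1012 to 1355 CPM at 3 months and 734 to 875 at 21 months. Fibroblast markers summed to 586 to 1225 and 435 to 491 CPM, and testis and sperm markers to 82.5 to 115 and 67.1 to 72.9 CPM. Leukocyte markers were at 32.6 to 44.7 and 43.3 to 54.9 CPM. Their part in the results was not tested.

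The other three genes in the caput were not called. Rnase10 had a log2 difference of 0.83 (SE 0.29, edgeR adjusted p = 0.0975), which was 0.65 (adjusted p = 0.191) without replicate 2 at 3 months and 1.33 (adjusted p = 0.00278) without replicate 3, the library with the high initial segment marker sum. Rnase9 had -0.65 (SE 0.22, adjusted p = 0.0805), which was -0.47 (adjusted p = 0.209) without replicate 4 at 3 months and -0.84 (adjusted p = 0.00260) without replicate 1. For each of these genes 1 of the 8 fits that left out 1 library gave a call. Rnase11 had 0.56 (SE 0.23, adjusted p = 0.151). In the number of genes whose ages did not overlap, 2 of 5 in the caput stood beside 16.9% of all genes.

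**Figure D4:**
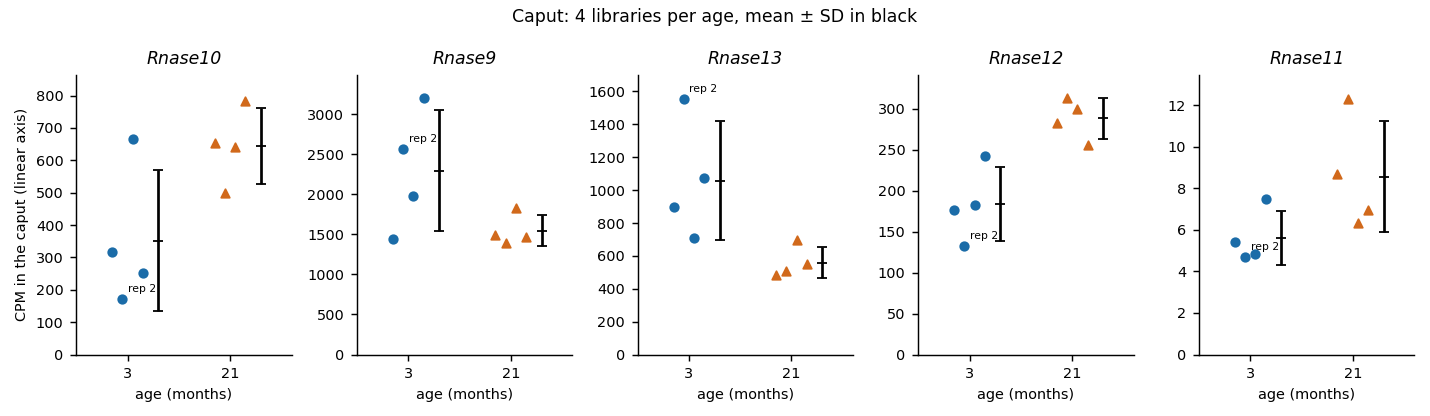
CPM (linear axis) of the 5 genes in the 4 caput libraries of each age (x axis, months), with the mean ± SD in black and replicate 2 at 3 months labelled. All 4 values of Rnase13 at 21 months (484 to 696 CPM) lie below those at 3 months, and all 4 values of Rnase12 (256 to 313 CPM) lie above.

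Per kb, the ratio of Rnase12 to Rnase13 within a caput library, which does not depend on scaling, was 0.412, 0.179, 0.540 and 0.476 at 3 months and 1.23, 1.29, 0.904 and 0.981 at 21 months. It was higher in every library at 21 months, as follows from the values above. The ratio of Rnase9 to Rnase12 was 4.64 to 10.9 at 3 months and 2.51 to 3.45 at 21 months, which did not overlap either. The ratio of Rnase9 to Rnase13 overlapped between the ages, at 2.68 ± 0.868 and 3.30 ± 0.253. The ratio of Rnase10 to Rnase12 also overlapped, at 0.784 ± 0.475 and 0.918 ± 0.245. In the initial segment the ratio of Rnase10 to Rnase12 was 13.8 to 16.1 at 3 months and 11.1 to 11.7 at 21 months, with no overlap. It was given no test and no background over other genes. Marker sums there also moved without overlap, among them smooth muscle (2592 to 3058 and 1845 to 2215 CPM). Others were testis and sperm (26.5 to 93.6 and 6.89 to 20.1) and leukocyte markers (38.0 to 41.7 and 48.1 to 56.5). Their part in the ratio was not tested.

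In the efferent ductules at 21 months, Rnase10 had 4, 3399, 1388 and 3 counts in replicates 1 to 4, against 1 to 3 per library at 3 months. The log2 difference of 9.28 (SE 2.02, edgeR adjusted p = 0.0261) rested on replicates 2 and 3, which also carried the initial segment markers. Without them it was 1.64 (adjusted p = 0.166). The call was also lost without any 1 of the 4 libraries at 3 months, at an adjusted p of 0.0711 to 0.0979. As a share of its initial segment mean, Rnase10 was 5.03 and 2.28% in these libraries, beside 4.30 and 1.85% for the marker sum. The caput markers were also high in replicates 2 and 3, at 833 and 273 CPM, against 2.46 and 7.56 in replicates 1 and 4 and 4.46 to 18.8 at 3 months. Rnase12 had 62 and 43 counts there and 0 in replicates 1 and 4. Other marker sums differed between the ages without overlap. The efferent ductule markers were lower at 21 months, at 4141 to 4703 CPM at 3 months and 3580 to 4058 at 21 months, and so were the fibroblast markers, at 1967 to 2655 and 1122 to 1282. Higher at 21 months were the cauda markers (603 to 697 and 761 to 932 CPM), the smooth muscle markers (509 to 563 and 570.5 to 703), the leukocyte markers (32.2 to 44.1 and 49.7 to 78.8) and the clear cell markers (0.355 to 0.743 and 1.46 to 6.91). Gm42418 took 1.27 to 3.29% of the counts at 3 months and 4.93 to 22.2% at 21 months. The part of these in the Rnase10 difference was not tested.

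In the cauda 0 of 5 genes were called by edgeR (0.128% of all genes). At an unadjusted p under 0.05 with 1.5-fold there were 3, namely Rnase9, Rnase10 and Rnase13, beside 8.3% of all genes, and DESeq2 called 1 (1.83% of all genes). This was Rnase10, with 4.06, 3.43, 1.22 and 3.76 CPM at 3 months and 8.49, 8.87, 12.0 and 8.36 CPM at 21 months. The groups did not overlap, and the log2 difference was 1.62 (SE 0.31, edgeR adjusted p = 0.0866). Without replicate 3 at 3 months the difference was 1.37 (adjusted p = 0.0253). That library held 642 CPM of leukocyte markers, against 55.5 to 60.04 in the other 3 and 66.1 to 98.6 at 21 months. In the same cauda libraries 3 marker sums were lower at 21 months without overlap. Smooth muscle markers summed to 4105 to 6320 CPM at 3 months and 2721 to 3989 at 21 months, fibroblast markers to 1597 to 5673 and 844 to 1016, and clear cell markers to 119 to 263 and 89.8 to 108. The vas deferens markers were higher without overlap, at 39.8 to 52.5 and 53.0 to 84.1 CPM. The part of these cells in the Rnase10 difference was not tested. Rnase12, at 216, 216, 133 and 217 CPM at 3 months and 230.1, 246, 217 and 219 CPM at 21 months, also had ages that did not overlap, by a gap from 217.2 to 217.4 CPM only, at a log2 difference of 0.24 (SE 0.15, adjusted p = 0.601). Thus 2 of 5 genes did not overlap, beside 8.46% of all genes.

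In the corpus, 0 of 5 genes were called (2.03% of all genes). At an unadjusted p under 0.05 with 1.5-fold there was 1, Rnase13 on 25 and 3 counts, beside 6.84% of all genes, and DESeq2 called 0 (2.5%). Rnase12 had 529.7, 472, 479.7 and 479.6 CPM at 3 months and 463, 369, 399 and 428 CPM at 21 months, which did not overlap (1 of 5, beside 10.2% of all genes). Its log2 difference was -0.26 (SE 0.09, edgeR adjusted p = 0.158). Rnase9 had -0.35 (SE 0.13, adjusted p = 0.163) and Rnase11 -0.36 (SE 0.13, adjusted p = 0.162), both with overlapping libraries. Several marker sums of the corpus libraries were lower at 21 months without overlap as well. The corpus markers, from the region where Rnase11 and Rnase12 peak, summed to 9329 to 10518 CPM at 3 months and 6491 to 8811 at 21 months, the cauda markers to 9276 to 15800 and 7050 to 8909, and the caput markers to 3222 to 4938 and 2460 to 3140. Fibroblast markers were at 1092 to 2084 and 555 to 677 CPM and clear cell markers at 90.5 to 119 and 81.7 to 84.0, while the vas deferens markers were higher, at 109 to 117 and 121 to 134. Their part in the Rnase12 difference was not tested.

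In the initial segment 0 of 5 were called (4.97% of all genes), 0 had an unadjusted p under 0.05 with 1.5-fold (11.5% of all genes), and DESeq2 called 0 (4.92%). The log2 difference was -0.15 (SE 0.08, edgeR adjusted p = 0.379) for Rnase10 and 0.21 (SE 0.07, adjusted p = 0.110) for Rnase12. In the vas deferens 0 were called (11% of all genes). At an unadjusted p under 0.05 with 1.5-fold there were 3, namely Rnase9, Rnase11 and Rnase12, beside 17.8% of all genes, and DESeq2 called 1 (12.0%). The count was 3 without replicate 2 at 21 months, the library with the lowest Rnase12 of its group, where Rnase12 had a log2 difference of 1.58 (edgeR adjusted p = 0.0168), and also 3 in the fit of all 56 libraries (1.31, adjusted p = 0.0156). It was 0 without each of the other 7 libraries in turn. Rnase12 ranged there from 4.49 to 40.3 CPM at 21 months, against 6.38 to 12.8 at 3 months, and Rnase11, on 1 to 18 counts per library, was the only gene of 5 whose ages did not overlap (25.0% of all genes). The corpus markers summed to 102 to 190 CPM in the vas deferens at 3 months and 198 to 729 at 21 months, and they were highest, at 451 and 729 CPM, in replicates 3 and 4 at 21 months, which also had the highest Rnase12, 28.1 and 40.3 CPM. The vas deferens markers were lower at 21 months without overlap, at 19956 to 22584 and 10324 to 17135 CPM, and so were the fibroblast markers, at 1521 to 1799 and 782 to 1161. Smooth muscle markers, at 10733 to 11215 and 11465 to 18621 CPM, and leukocyte markers, at 43.5 to 56.5 and 85.4 to 258, were higher. Their part in the Rnase11 and Rnase12 values was not tested. In the testis only Rnase10 had enough counts to test and was not called (0.253% of all genes), at a log2 difference of 0.09 (SE 0.16, adjusted p = 0.896). At an unadjusted p under 0.05 with 1.5-fold there were 0 (2.71% of all genes), and DESeq2 called 0 (0.23%).

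**Figure D5:**
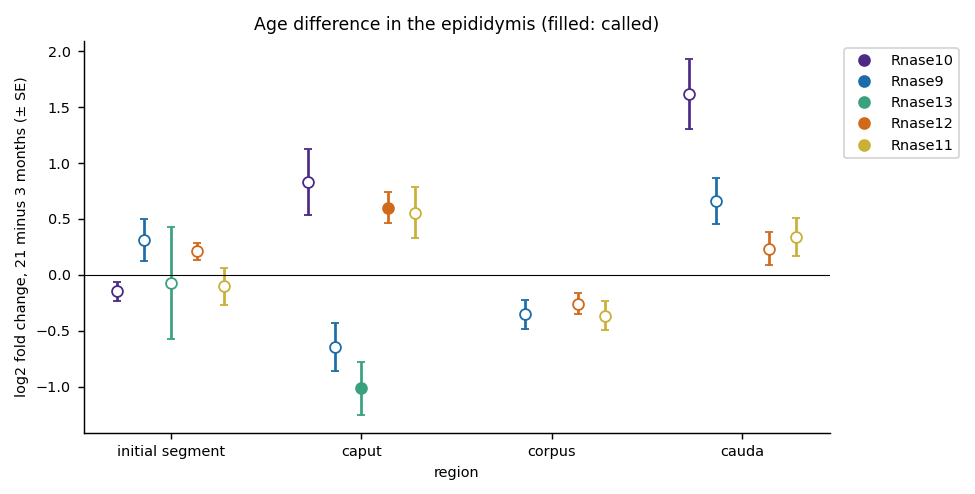
Log2 fold change (21 minus 3 months) ± SE of each gene with a mean of at least 1 CPM at either age, by epididymal region on the x axis, from the edgeR fits. Filled points are called, and these are Rnase12 (0.60) and Rnase13 (-1.02) in the caput.

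Whether the age effect differed between neighbouring regions was tested in a fit of all 56 libraries, again treated as independent. None of the 5 genes was called by edgeR at an adjusted p under 0.05 between caput and initial segment (0 of 5, beside 6.57% of all genes), corpus and caput (0 of 5, 1.84%) or cauda and corpus (0 of 5, 0.381%). At an unadjusted p under 0.05 there were 1 (19.8% of all genes), 1 (14.7%) and 2 (13.4%), and DESeq2 called 0 (5.41%), 1 (4.66%) and 0 (3.55%). The smallest adjusted p was that of Rnase11 between corpus and caput, 0.0674, at a difference of -0.94 (SE 0.28) between its log2 age effects, and this was also the gene that DESeq2 called (-0.87, adjusted p = 0.0326). For Rnase12 the difference between the age effects of corpus and caput was -0.89 (SE 0.49, adjusted p = 0.409) and for Rnase13 that of caput and initial segment was -0.70 (SE 0.66, adjusted p = 0.667). The age differences of the caput were not shown to be particular to it. This fit takes 1 estimate of variation per gene from all regions, for Rnase12 including the vas deferens at 21 months (4.49 to 40.3 CPM). The SE of Rnase12 was larger here than in the separate fits of caput and corpus, so the test could miss a difference between these regions.

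Of 15 other ribonuclease A family genes, 9 had 0 counts in the caput at 3 months, among them the angiogenin genes Ang2, Ang4, Ang5 and Ang6. Rnh1, which encodes the ribonuclease inhibitor of the cytosol, had 48.9 ± 9.81 CPM per kb there, and Rnase4, the highest of the 15, had 13.5 ± 2.08, above the 7.86 of Rnase11. In the efferent ductules at 3 months Rnase4 had 28.4 ± 0.957 CPM per kb, where the means of the 5 genes lay between 0 for Rnase11 and 0.123 CPM per kb for Rnase13, and in the cauda it had 47.3 ± 9.20 CPM per kb. Rnh1 and Rnase4 were named after their values were seen. Of the 15, between 4 and 5 were tested in each region and 0 were called between the ages by edgeR in any region. Their median log2 difference between the ages was above 0 for testis (0.24) and efferent ductules (0.19). It was below 0 for cauda (-0.42), corpus (-0.41), caput (-0.28), initial segment (-0.23) and vas deferens (-0.21), and over all genes tested the medians of the 7 regions were -0.04 to 0.02. Of 41 protein-coding genes within 200 kb of the span from Rnase10 to Rnase13, 21 were tested in the caput and 0 were called, with a median of 0.06. Elsewhere 3 neighbours were called, all lower at 21 months and named after their values were seen, which were Tppp2 in the initial segment and Pnp2 and Apex1 in the vas deferens.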

How the data were processed

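RNA-seq was performed by the authors on 7 tract regions at 2 ages, with a stranded total RNA kit and paired-end reads. Per the labels and the study's methods, reads were trimmed with cutadapt and aligned with HISAT2 to the mouse genome mm10, and the authors deposited raw HTSeq counts per Ensembl gene. Versions, annotation release and strand setting are not given in the sources used here, and the RNA kit differs between the sources. Symbols were taken from GENCODE M21 (53274 of 53379 genes).

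Samples were grouped by region and age from the labels. Genes whose counts summed to 10 or more were tested with the edgeR 4.0.16 quasi-likelihood F-test (R 4.3.3, TMM, Benjamini-Hochberg), in 1 fit per region for age, 1 per age for regions and 1 over all 56 libraries for differences of age effects. Calls needed an adjusted p under 0.05 and at least 1.5-fold for age, 4-fold for regions and no fold for differences of age effects. CPM used TMM factors over all 56 libraries. DESeq2 1.42.0, other scalings, filters, a replicate block and leaving out libraries were tried. Fits were tested on simulated data. Library totals were 11125279 to 20561967 counts. A count of 0 allows up to 3 counts per library, for counting error only. No replicate pair of 84 agreed within sampling noise (lowest chi-square per degree of freedom 3.03). Every same-number correlation of deviations was over 0.1 only between corpus and cauda at 3 months (lowest 0.102, mean 0.133), from the data and not the labels. The mean was higher, with a lower minimum, for caput and corpus at 3 months (mean 0.188, lowest 0.0415). The same held for corpus and cauda at 21 months (mean 0.143, lowest 0.0535).

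All 5 genes, and for each the 3 genes of highest Pearson correlation with it, are named. Genes, lists and markers were chosen with earlier results of these data known. Promoter sequences are from RefSeq (5 of 5 matched). The ETS site was searched on both strands. The result for 1 gene of the factor list is not reported here.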

Additional observations from a re-analysis of the deposited data

Results flagged for a closer look

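Of 42 groups of 4 libraries with enough signal, 4 had 1 library far from the other 3 by Dixon's criterion at the 95% level, which chance gives in about 1 in 20 groups. Rnase10 in the cauda at 21 months was highest in replicate 3, at 12.0 CPM. Rnase12 was highest in replicate 2 of the initial segment at 3 months, at 141 CPM, and in replicate 1 of the corpus at 3 months, at 529.7 CPM. Rnase12 was lowest in replicate 3 of the cauda at 3 months, at 133 CPM, the library with 642 CPM of leukocyte markers. The part of other cells in that value was not tested.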

How the results depend on the processing

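The number of the 5 genes called between the ages in the caput was 2, and it was 0 with library size only or with all 56 libraries in one fit. It was 4 with no filter or an unadjusted p (13.2% of all genes at the latter). Leaving out 1 caput library gave 0 to 3. In the efferent ductules the count of 1 became 2 with library size only, no filter, an unadjusted p (12.8% of all genes) or all 56 libraries. It became 0 with filterByExpr, 0 without 21-month libraries 2 and 3 (chosen after seeing the data), and 0 to 2 with 1 library left out. In the corpus the count of 0 became 1 with an unadjusted p. In the cauda it became 1 with DESeq2 or no filter and 3 with an unadjusted p, and was 0 to 1 with 1 library left out. In the vas deferens it became 1 with DESeq2 or no filter and 3 with an unadjusted p or all 56 libraries, and was 0 to 3 with 1 library left out (3 without replicate 2 at 21 months). Between corpus and caput at 3 months, 5 rather than 3 genes passed with no fold threshold. The share of all genes was computed only with the 4-fold limit (10.8%), so the count of 5 has no background beside it. Leaving out 1 replicate number gave 3 to 4 there, and 4 to 5 between initial segment and efferent ductules. Between efferent ductules and testis the count of 4 was 2 to 3 with 1 replicate number left out at 3 months, and at 21 months it became 1 without efferent ductule libraries 2 and 3, where the Rnase10 log2 difference turned from 4.02 to -3.67. For the age effect of corpus minus caput, 1 gene rather than 0 was called with library size only or DESeq2, and the Rnase9 difference turned from 0.24 to -0.10 with library size only. Causes were not tested.

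The Rnase10 age difference in the testis was -0.014 to 0.19 with 1 library left out, and that of Rnase13 in the initial segment was -0.44 to 0.44. With the replicate number as a block, the latter turned from -0.07 to 0.094, and in the caput Rnase10 was also called (0.99, adjusted p = 0.00645), beside Rnase12 (0.62, adjusted p = 0.0127) and Rnase13 (-0.93, adjusted p = 0.00746). The libraries of the ages are from different mice that share only a number, and same-number caput libraries of the ages did not deviate together (lowest correlation -0.024, mean 0.0503), so this pairing has no basis. Under the block no call changed between cauda and corpus at 3 months, where every same-number correlation was over 0.1. Low counts limit what can be said of Rnase9, Rnase11, Rnase12 and Rnase13 in testis and efferent ductules.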
